A study of Mus musculus with 64 samples.

Results

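Cell cycle and DNA replication genes were followed in RV and LV tissue from a mouse model of arrhythmogenic cardiomyopathy. The set held 37 genes chosen by symbol, and all 37 were found among the 39152 named rows of the deposited count table. Of these, 23 encode proteins of mitosis and late G2, and 14 encode proteins of DNA replication and of the passage from G1 into S phase. The former are called mitotic genes and the latter S-phase genes throughout, and they are described separately.

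The C57BL6 mice carried floxed Pkp2 alleles. In the knockout a tamoxifen-inducible Cre recombinase (αMyHC-Cre-ER(T2)) removed the gene for the desmosomal protein plakophilin-2. The αMyHC promoter limits Cre to cardiomyocytes, so other heart cells kept Pkp2. Littermates without Cre served as WT (9 animals) and received vehicle, as did the untreated knockout, cKO (4 animals). The other knockout mice received AAV9:mPkp2, an adeno-associated virus with the mouse Pkp2 sequence. AAV_3E13 (8 animals) received 3e+13 vector genomes per kg and AAV_1E14 (5 animals) 1e+14, both 1 week before tamoxifen by their labels, although the study also describes early dosing as after tamoxifen. AAV_1E14_2.5wk (6 animals) received 1e+14 at 2.5 weeks after tamoxifen and is called the late group. RV and LV of every animal were sequenced, which makes 64 libraries. Tissue of the untreated cKO was taken at an earlier age than that of the other groups, so knockout and age cannot be told apart in any comparison with cKO.

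Cells that enter the cell cycle first make cyclin D and cyclin E, which release E2F transcription factors to switch on genes for nucleotide supply and for the MCM helicase that opens DNA. Later, cyclin A, cyclin B and Cdk1 drive mitosis together with kinases, kinesin motors and centromere proteins, most of which are transcribed shortly before division. In the adult heart cardiomyocytes have largely left the cell cycle, while fibroblasts, endothelial cells and immune cells can still divide. In bulk RNA, more cycling cells and more RNA per cycling cell cannot be told apart.

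Promoters of both gene groups are shown because most members of each group were higher in the knockout. A window from 250 bases before to 50 bases after the transcription start (RefSeq, build GRCm38.p6) was on hand for 30 of the 37 genes, and 2 genes had a second window. The cell cycle homology region (CHR) is a short element known from late cell cycle genes and was searched with the word TTTGAA and with the word TTCGAA. E2F sites are known from S-phase genes and were searched with the word TTCCCGC, with the word TTGGCGC, with the word TTGCCGC and with the word TTCGCGC. All words were searched on both strands, and capitals mark the CHR and E2F words.
Top2a promoter: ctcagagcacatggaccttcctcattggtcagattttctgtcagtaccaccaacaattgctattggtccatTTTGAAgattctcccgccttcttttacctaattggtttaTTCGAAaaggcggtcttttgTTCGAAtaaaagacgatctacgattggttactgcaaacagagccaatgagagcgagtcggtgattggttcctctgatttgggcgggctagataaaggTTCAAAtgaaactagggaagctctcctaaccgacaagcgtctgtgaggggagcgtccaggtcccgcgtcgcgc
Ccnb2 promoter: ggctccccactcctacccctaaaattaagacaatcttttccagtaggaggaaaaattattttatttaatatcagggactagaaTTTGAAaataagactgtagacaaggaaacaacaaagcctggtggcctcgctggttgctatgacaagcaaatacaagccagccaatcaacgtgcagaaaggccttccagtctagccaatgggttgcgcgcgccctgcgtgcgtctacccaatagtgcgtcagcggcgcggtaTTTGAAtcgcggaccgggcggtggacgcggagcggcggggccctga
Cenpf promoter: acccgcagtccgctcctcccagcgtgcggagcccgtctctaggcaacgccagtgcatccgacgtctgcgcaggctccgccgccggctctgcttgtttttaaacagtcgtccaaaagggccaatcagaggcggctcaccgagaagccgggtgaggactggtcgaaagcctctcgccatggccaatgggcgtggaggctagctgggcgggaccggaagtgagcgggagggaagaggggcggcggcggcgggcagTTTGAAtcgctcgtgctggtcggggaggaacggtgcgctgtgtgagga
Mcm3 promoter: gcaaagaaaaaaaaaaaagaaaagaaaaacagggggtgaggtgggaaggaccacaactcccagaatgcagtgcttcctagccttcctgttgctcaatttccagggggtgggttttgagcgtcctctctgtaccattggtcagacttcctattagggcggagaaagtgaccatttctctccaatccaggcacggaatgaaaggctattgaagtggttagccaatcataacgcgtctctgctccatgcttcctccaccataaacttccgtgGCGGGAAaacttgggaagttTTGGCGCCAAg
Mcm6 promoter: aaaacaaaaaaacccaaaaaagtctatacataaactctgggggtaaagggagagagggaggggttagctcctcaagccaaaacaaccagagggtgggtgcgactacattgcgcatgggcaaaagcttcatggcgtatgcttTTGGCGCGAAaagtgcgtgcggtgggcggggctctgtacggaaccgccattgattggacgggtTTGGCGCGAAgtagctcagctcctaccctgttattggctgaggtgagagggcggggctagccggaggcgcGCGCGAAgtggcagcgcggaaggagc
Top2a (chr11:99024140-99024439, minus strand) had 4 CHR words and Ccnb2 (chr9:70421505-70421804, minus strand) had 2. Cenpf (chr1:189688037-189688336, minus strand), which moved against the other mitotic genes, had 1. Mcm3 (chr1:20820263-20820562, minus strand) had 3 E2F words and Mcm6 (chr1:128359656-128359955, minus strand) had 5. Overlapping E2F words of both strands were counted separately, so a single stretch of capitals can hold more than 1 word. A CHR word stood in 16 of 20 windows of mitotic genes (80%), in 2 of 12 windows of S-phase genes (16.7%) and in 19.2% of all 32851 windows. An E2F word stood in 3 of 20 mitotic windows (15%), in 7 of 12 S-phase windows (58.3%) and in 9.57% of all windows. CCAAT, whose letters can overlap an E2F word, stood in 90%, 75% and 37.4% of these windows. A matching word describes the sequence and is no measured binding site. Aurkb, Ccna2, Ccnd1, Ccne2, Kif20a, Mcm4 and Tpx2 had no window.

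Between 5.34 M and 10.2 M counts (M, 1e+06) of each library entered the tests, after mitochondrial genes had been left out. Levels are given as counts per 1e+06 counts (CPM). For this the counts used of each library were scaled by edgeR's TMM factors over all 64 libraries. Between genes they are given as transcripts per 1e+06 transcripts (TPM), which correct for length. Pkp2 followed the labels: its mean was 149 ± 20.5 CPM (SD, n = 9) in WT RV, 60.5 ± 28.5 (n = 4) in cKO RV and 1302 ± 544 (n = 5) in AAV_1E14 RV. The library labelled AAV_1E14_2.5wk_RV_5814 did not match its LV partner in sex-linked transcripts (Xist 263 against 3064 CPM, Ddx3y 99.5 against 0 CPM). WT_RV_5819 held atrial transcripts at 1299 summed TPM against 11.1 to 193 in the other WT RV libraries. Where leaving out either library changed a count of calls, the value without it is given beside the result.

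In WT hearts many mitotic genes were sparsely counted. In WT RV 12 of the 23 had a mean below 10 counts per library and in WT LV 11, and 9 had a library at 0 in each ventricle. The S-phase genes were better covered, with 3 of 14 below a mean of 10 counts in RV and 2 in LV. On the TPM scale Cenpf and Cenpa stood apart from the other 21 mitotic genes in WT RV. Cenpf, a large protein of the kinetochore, had a mean of 30.5 ± 5.64 TPM (SD, n = 9), and Cenpa, the histone variant that marks centromeres, had 20.04 ± 4.72. The next was Top2a, a topoisomerase that untangles replicated chromosomes, at 3.12 ± 2.79 TPM. Prc1, which bundles microtubules of the late spindle, had 2.48 ± 1.69, and Mki67, which encodes the proliferation antigen Ki-67, had 2.29 ± 1.32. These last 3 do not differ beyond their spread. Among S-phase genes Pcna, the sliding clamp of DNA polymerase, had 51.2 ± 8.93 TPM and Ccnd1, cyclin D1, had 44.6 ± 7.80. Pcna and Ccnd1 overlap in spread, and both lay well above Mcm7, a helicase subunit, at 13.1 ± 4.45. In WT LV the highest of each group were again Cenpf and Cenpa, and Pcna and Ccnd1.

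In the untreated knockout most mitotic genes were higher than in WT of the same ventricle. Mki67 (GRCm39 chr7:135291513-135318299, minus strand) ranged from 5.55 to 37.1 CPM in the 9 WT RV libraries, with a median of 15.2. The 4 cKO RV libraries had 78.0, 99.7, 214 and 311 CPM. Every cKO library lay above every WT library, and the cKO libraries themselves were widely spread. The fitted rise was 10.2-fold (log2 fold change 3.36 ± 0.38 SE, adjusted p = 9.996e-06, edgeR's quasi-likelihood test with Benjamini-Hochberg adjustment over all genes tested). The values of all 64 libraries are drawn for 8 genes in the plot of levels by library.

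**Figure D1:**
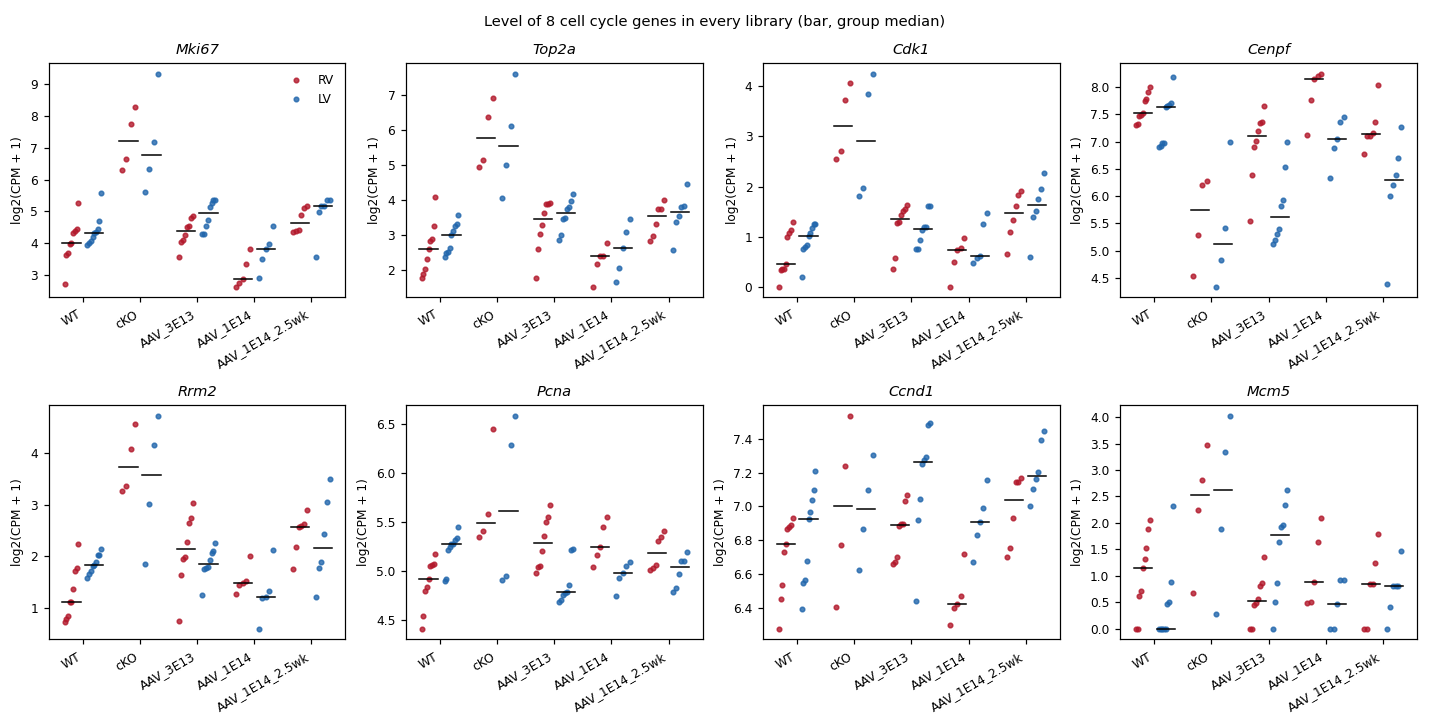
Level of 8 cell cycle genes in every library as log2(CPM + 1), RV in red and LV in blue, with the 5 groups along the horizontal axis and a bar at each group's median. The cKO libraries lie above the WT libraries for Mki67, Top2a and Cdk1 and below most of them for Cenpf, while cKO and WT overlap for Ccnd1.

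Top2a (chr11:98883769-98915062, minus strand) followed Mki67. It ranged from 2.43 to 15.98 CPM in WT RV (median 4.98) and was 29.8, 34.1, 81.2 and 118 CPM in cKO RV, with no overlap. The rise was 3.46 ± 0.44 on the log2 scale (adjusted p = 2.414e-05). Cdk1 (chr10:69170976-69236595, minus strand), the kinase that starts mitosis, ranged from 0 to 1.44 CPM in WT RV (median 0.364) and was 4.84, 5.51, 12.3 and 15.8 CPM in cKO RV. Its partner cyclin B1, encoded by Ccnb1 (chr13:100915153-100923116, minus strand), ranged from 0.393 to 1.17 CPM (median 0.947) and was 5.71, 7.62, 14.2 and 17.6 CPM. Neither gene overlapped between the groups. Cdk1 rose by 3.85 ± 0.56 on the log2 scale (adjusted p = 6.951e-05) and Ccnb1 by 3.65 ± 0.33 (adjusted p = 1.713e-06).

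Over the whole group, 21 of 23 mitotic genes were called higher and 1 lower in cKO RV, where 22% of all genes tested were called higher and 20.3% lower. The median log2 fold change of the 23 was 3.12, against 0.02 over all genes. All 23 passed the filter on low counts here, and without it the counts were the same (14.3% and 11.9% of all genes). The called rises spanned 2.34 on the log2 scale for Nusap1, a spindle microtubule protein, to 3.85 for Cdk1. Ube2c, a ubiquitin-conjugating enzyme that ends mitosis, rose by 3.83, and Ccna2, which encodes cyclin A2, by 3.71 ± 0.32 (adjusted p = 1.018e-06). The kinases Aurkb and Plk1 rose by 3.52 and 2.97, and the kinesins Kif20a and Kif11 by 3.64 and 3.01. The checkpoint kinase Bub1 had the highest adjusted p among these rises (0.03195). In 18 mitotic genes every cKO RV library lay above every WT RV library, which held for 12.7% of all genes tested.

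Cenpf and Cenpa differed from the other mitotic genes. Cenpf (chr1:189372752-189420315, minus strand) ranged from 157 to 255 CPM in WT RV (median 184) and was 22.2, 37.9, 72.8 and 76.9 CPM in cKO RV. All 4 cKO libraries lay below every WT library. Cenpf fell by 1.91 ± 0.28 on the log2 scale (adjusted p = 7.884e-05) in RV. In WT LV it ranged from 119 to 289 CPM (median 197), and the cKO LV libraries had 19.3, 27.4, 41.8 and 127 CPM. The highest cKO LV value, that of cKO_LV_2006, lay inside the WT range, and the fall in LV was 1.73 ± 0.43 (adjusted p = 0.004341). The effective transcript length deposited for Cenpf varied, between 8209 and 12458 bases in WT LV and between 8991 and 11665 in cKO RV, and with these lengths as offsets the fall was 1.71 in each ventricle. Cenpa ranged from 7.64 to 14.1 CPM in WT RV and from 8.70 to 16.6 in cKO RV, so the groups overlapped (0.08 ± 0.19, adjusted p = 0.7778). On the TPM scale Cenpf, the highest mitotic gene of WT RV, had 8.22 ± 4.395 in cKO RV (SD, n = 4), where Top2a led with 26.5 ± 16.6.

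The same comparison in LV gave fewer calls and a wider spread between knockout animals. Mki67 ranged from 14.5 to 47.2 CPM in WT LV (median 19.1) and was 47.5, 80.1, 145 and 644 CPM in cKO LV. The lowest cKO value was just above the highest WT value, and the highest, cKO_LV_2006, was far from the other 3. The log2 fold change was 3.39 ± 0.50 (adjusted p = 7.483e-05). Top2a ranged from 4.14 to 10.7 CPM in WT LV and was 15.7, 30.5, 68.1 and 193 CPM in cKO LV (3.48 ± 0.46, adjusted p = 3.065e-05). Cdk1 ranged from 0.144 to 1.39 CPM and was 2.49, 2.92, 13.4 and 18.1 CPM, and Ccnb1 ranged from 0 to 2.46 CPM and was 2.06, 4.54, 12.6 and 23.1 CPM. Cdk1 did not overlap between the groups, while the lowest cKO value of Ccnb1 lay below the highest WT value.

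Of the 23 mitotic genes 21 passed the filter in LV, and 17 were called higher and 1 lower, against 23.6% and 23% of all genes tested. Without a filter all 23 were tested, and 19 were called higher and 1 lower, against 15.1% and 13.7% of all genes. The 2 genes added by dropping the filter were Ccnb2, which encodes cyclin B2, and Aurkb. Bub1 (1.27, adjusted p = 0.2288), Kif23 (2.48, 0.06352) and Cenpa (-0.61, 0.05753) did not pass the test in LV. In 9 mitotic genes every cKO LV library lay above every WT LV library, against 11.9% of all genes. Under an unequal-variance test on log2(TPM + 1), the kind of test that the study used, 13 of the 37 members passed in RV and 0 in LV. No share of all genes is given for that test here or below, so its counts do not set the members apart from other genes. In LV 10 were higher and 1 lower at an unadjusted p under 0.05 in that test. No member's difference from WT was called as different between the ventricles in cKO by edgeR, where 0.0272% of genes were called lower and 0 higher, and 1 member was higher at an unadjusted p under 0.05.

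**Figure D2:**
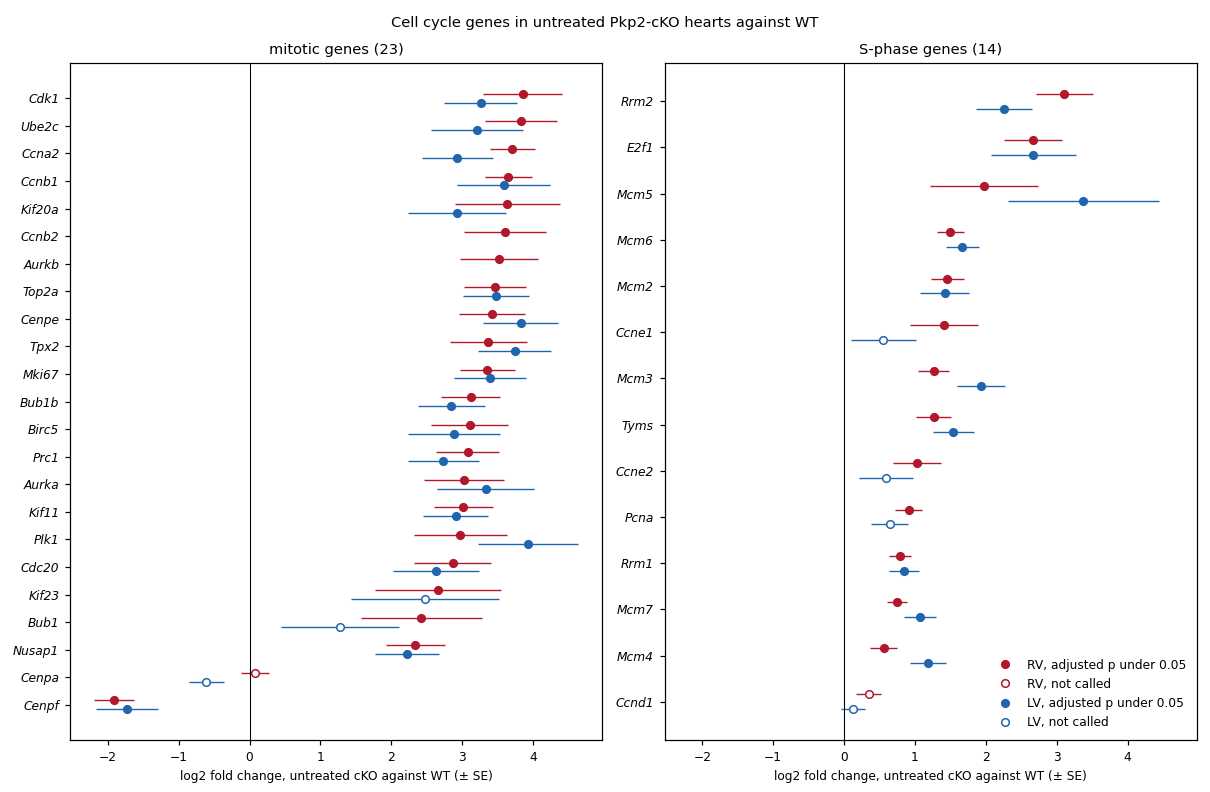
Log2 fold change between untreated cKO and WT for the 23 mitotic genes (left) and the 14 S-phase genes (right), with bars of 1 SE, RV in red and LV in blue, filled where the adjusted p is under 0.05 and open where it is not. Most mitotic genes lie between 2 and 4, Cenpf lies below 0 and Cenpa near 0, while S-phase genes other than Rrm2, E2f1 and Mcm5 lie below 2.

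The S-phase genes had a smaller median change. In cKO RV 13 of 14 were called higher and 0 lower (22% and 20.3% of all genes), with a median log2 fold change of 1.27. In LV 10 of 14 were called higher and 0 lower (23.6% and 23%), with a median of 1.30. All 14 passed the filter in both ventricles. Without the filter 11 were called in RV (14.3% of all genes) and 10 in LV (15.1%). Every cKO library lay above every WT library for 9 S-phase genes in RV (12.7% of all genes) and for 4 in LV (11.9%).

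Rrm2 (chr12:24757811-24764145, plus strand), the S-phase subunit of ribonucleotide reductase, ranged from 0.668 to 3.74 CPM in WT RV (median 1.18) and was 8.61, 9.31, 15.9 and 22.6 CPM in cKO RV. All 4 cKO values lay above the WT values, and the rise of 3.11 ± 0.40 on the log2 scale was the largest of the S-phase genes in RV (adjusted p = 2.426e-05). In LV it ranged from 2.00 to 3.43 CPM in WT (median 2.55) and was 2.60, 7.03, 16.8 and 25.4 CPM in cKO, so the lowest cKO library fell among the WT libraries (2.26 ± 0.40, adjusted p = 0.0002854). Its partner subunit Rrm1 rose by 0.79 in RV and 0.84 in LV, and Tyms, which makes thymidylate, by 1.26 and 1.54. E2f1, a factor that switches on S-phase genes, rose by 2.67 ± 0.41 in RV (adjusted p = 0.0001146) and 2.67 ± 0.60 in LV (0.001982).

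Among the 6 MCM helicase subunits, all were called higher in both ventricles. Mcm6 rose by 1.501 ± 0.18 in RV (adjusted p = 1.856e-05) and 1.67 ± 0.23 in LV (4.892e-05), and Mcm3 by 1.27 and 1.93. The smallest called rise in RV was that of Mcm4, at 0.56. Mcm5 (chr8:75836140-75856231, plus strand) was sparse: it was at 0 in 2 WT RV libraries and ranged to 3.16 CPM in the others, and the cKO RV libraries had 0.601, 3.77, 6.01 and 10.04 CPM. These overlapped, and the rise of 1.97 ± 0.76 stood close to the threshold (adjusted p = 0.04906). In LV 5 of 9 WT libraries were at 0 for Mcm5 and the highest had 3.98 CPM, while cKO had 0.216, 2.70, 9.17 and 15.3 (3.38 ± 1.07, adjusted p = 0.01704).

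Of the G1 cyclin genes Ccnd1, Ccne1 and Ccne2 and of Pcna, 0 passed the test in LV. Ccnd1 (chr7:144483668-144493662, minus strand) ranged from 76.5 to 121 CPM in WT RV (median 109) and was 83.8, 108, 150.3 and 185 CPM in cKO RV. It was the only S-phase gene not called in RV (0.35 ± 0.18, adjusted p = 0.1333), and it was not called in LV (0.13 ± 0.17, 0.556). Ccne1 (chr7:37797404-37808264, minus strand), cyclin E1, ranged from 0 to 1.35 CPM in WT RV and was 1.79, 1.87, 2.30 and 3.16 CPM in cKO RV (1.41 ± 0.49, adjusted p = 0.02908). In LV Ccne1 ranged from 0.601 to 2.31 CPM in WT and was 0.541, 2.05, 2.14 and 4.12 CPM in cKO, so the groups overlapped, and the difference did not pass the test (0.56 ± 0.46, 0.3455). Pcna (chr2:132091082-132095234, minus strand) ranged from 20.3 to 35.0 CPM in WT RV (median 29.2) and was 39.8, 41.4, 47.0 and 86.3 CPM in cKO RV. The cKO values lay above all WT values, and the rise was 0.91 ± 0.19 (adjusted p = 0.001542). In LV Pcna ranged from 29.0 to 42.8 CPM in WT and was 29.0, 29.8, 77.0 and 95.0 CPM in cKO: 2 knockout libraries fell at the lower end of WT and 2 lay far above it (0.65 ± 0.26, adjusted p = 0.05313). Pcna has processed pseudogenes that can share its reads, so its level is uncertain.

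The same knockout animal held the highest place for most members, while the lowest place changed with ventricle and gene group. Such places were not counted over all genes, so a shift of a whole library is not set apart. The library cKO_LV_2006 was the highest of 4 for 23 of 23 mitotic genes and 13 of 14 S-phase genes, and cKO_LV_2052 was the lowest for 18 and 14. The RV library of the first of these animals, cKO_RV_2006, was the highest for 20 of 23 and 11 of 14. In RV cKO_RV_3217 was the lowest for 17 mitotic and 5 S-phase genes, and cKO_RV_2052 for 6 and 9. The library cKO_LV_2052 still lay above every WT library for 10 mitotic and 4 S-phase genes. The summed TPM of the 21 mitotic genes other than Cenpf and Cenpa, a pair left out after their values were seen, is given as a description. It was 13.7 to 63.0 in WT RV and 116 to 355 in cKO RV, and 17.8 to 54.5 in WT LV and 45.9 to 669 in cKO LV. All 23 mitotic genes summed to 49.7 to 119 TPM in WT RV and to 134 to 385 in cKO RV. In LV all 23 summed to 66.2 to 88.9 in WT and 56.6 to 710 in cKO, so the lowest cKO sum lay below the WT range. All 14 S-phase genes summed to 120 to 189 TPM in WT RV and to 178 to 337 in cKO RV, which overlapped. Without Ccnd1, also left out after its values were seen, the other 13 summed to 89.4 to 134 and to 149 to 296. Their cKO LV range, 95.3 to 496, began inside that of WT.

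**Figure D3:**
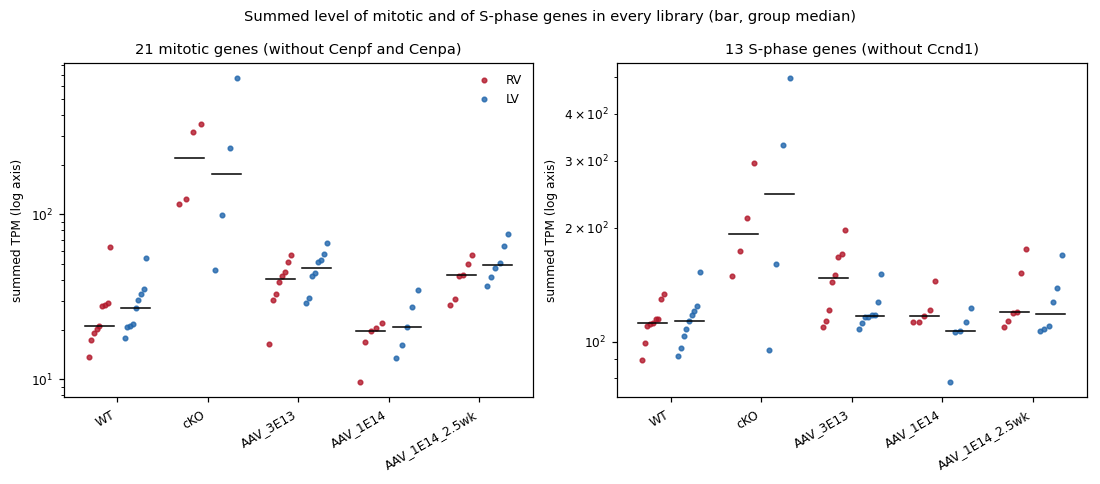
Summed TPM (log axis) of 21 mitotic genes (left, without Cenpf and Cenpa) and 13 S-phase genes (right, without Ccnd1) in every library, RV in red and LV in blue, with a bar at each group's median. For these 21 mitotic genes the cKO RV libraries (116 to 355) lie above every library of the 4 other groups. With Cenpf and Cenpa included (not drawn), the lowest cKO RV sum (134) is below the highest late LV sum (138). For the S-phase genes cKO overlaps both AAV_3E13 and the late group in RV.

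Markers of other cell types moved with these genes. All 10 macrophage markers were called higher in cKO in both ventricles, and their summed TPM was 158 to 289 in WT RV and 486 to 1447 in cKO RV. Of 10 fibroblast markers 7 were called higher and 1 lower in RV and 4 higher and 1 lower in LV, with summed TPM of 1072 to 2193 in WT RV and 3049 to 7754 in cKO RV. Cardiomyocyte markers were called lower in 9 of 10 genes in RV and 10 of 10 in LV, and summed to 38420 to 54518 TPM in WT RV and 8169 to 26557 in cKO RV. Among 10 endothelial markers 0 were higher and 1 lower in RV, and 1 higher and 0 lower in LV. Of 10 lymphocyte markers 5 were tested, and 2 were higher in RV and 3 in LV. Of the erythroid markers 0 of 5 tested were called in RV and 1 of 4 was higher in LV. The 5 atrial markers summed to 341 to 1156 TPM in cKO RV, inside the range of WT RV with WT_RV_5819 and above that of the other 8 libraries. In LV they summed to 22.5 to 179 TPM in WT and 932 to 1558 in cKO, and 2 of the 5 were tested in RV and 1 in LV, with 1 called higher in each. The atrial list includes Nppa, which the study uses as a heart failure marker, so its sum does not stand for atrial tissue alone. In cKO LV the macrophage sums were 1759, 840, 559 and 268 TPM, and the 21 mitotic genes summed to 669, 251, 99.0 and 45.9 TPM in the same libraries. In cKO RV the macrophage sum was highest in cKO_RV_3217 (1447 TPM), whose mitotic sum was the lowest (116 TPM), and cKO_RV_2006 had 1173 and 355. In the macrophage and fibroblast lists 0 genes were at 0 throughout a group. The part of these other cells in the result was not tested.

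Other cell cycle genes outside the set were counted in the same way. Over all genes 22% were called higher in RV and 23.6% in LV, while 20.3% and 23% were called lower. Of 42 other spindle, kinetochore and cytokinesis genes 37 were tested in cKO RV, and 34 were called higher and 1 lower, with a median log2 fold change of 3.08. In LV 31 of 34 tested were higher and 1 lower. A gene that is high in cKO alone can pass the filter on low counts. Against WT, 17, 18 and 21 of these 42 passed it in RV of AAV_3E13, AAV_1E14 and the late group. No count without a filter is given for the lists outside the set, so their counts are partly set by the filter. Anln, which organises the cytokinetic ring, rose by 2.93 ± 0.26 (adjusted p = 1.306e-06), Racgap1, a regulator of cytokinesis, by 3.04, and Ncapg2, a condensin subunit, by 2.61. Pttg1, which encodes securin, fell by 0.79 ± 0.13 (adjusted p = 0.0002099) in RV and by 0.95 in LV (0.005257). Of 40 other replication genes 39 were tested in RV, and 24 were called higher and 1 lower, with a median of 0.91. In LV 17 were higher and 3 lower. Pclaf (2810417H13Rik in the table), a PCNA-binding protein, rose by 3.95 ± 0.54 (adjusted p = 4.642e-05), Uhrf1, which guides maintenance DNA methylation, by 3.02, and Tk1, thymidine kinase, by 2.41. Gmnn, which encodes the replication inhibitor geminin, fell by 1.11 ± 0.35 in RV (adjusted p = 0.01859) and by 1.58 in LV (0.0001189). The other 2 called lower in LV were Rpa1, a subunit of the single-strand binding protein (-0.46, 0.01158), and Dut, which clears dUTP (-0.74, 0.02222).

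Regulators and brakes were counted in the same way. Of 22 other cyclins, CDKs and E2F or MuvB factors 18 were tested in cKO RV, and 12 were called higher and 2 lower, with a median of 0.63. In LV 12 of 18 were higher and 3 lower. E2f2 rose by 2.46 and Cdk6, a G1 kinase, by 1.11. Tfdp2, a partner of E2F factors, fell by 1.30 ± 0.17 (adjusted p = 2.564e-05), and Lin52, a MuvB subunit, by 0.57. In LV Tfdp2 and Lin52 fell by 1.53 and 0.89, and Ccnd2, cyclin D2, by 0.70 (0.00509). Of 14 brakes on the cell cycle 11 were tested. In RV 4 were called higher and 1 lower, with a median of 0.11, against 22% and 20.3% of all genes. In LV 2 of 11 were higher and 0 lower, against 23.6% and 23% of all genes. The brakes called higher in RV were Rbl1, a relative of the retinoblastoma protein (1.10), the CDK inhibitors Cdkn1a (1.90 ± 0.32, adjusted p = 0.0002364) and Cdkn2c (0.98), and Pkmyt1, which holds Cdk1 inactive (3.28). Meis1, a factor known to restrain cardiomyocyte division, fell by 0.66 (adjusted p = 0.005852). In LV Rbl1 (1.33) and Cdkn1a (1.25) were higher, while Cdkn2c (0.19, 0.5742), Pkmyt1 (1.06, 0.2515) and Meis1 (-0.19, 0.4141) did not pass the test. Rb1 (0.11), Cdkn1b (0.10) and Wee1 (0.02) did not pass it in RV.

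The vector groups were next set against untreated cKO. These 3 comparisons share the same 4 cKO animals and the difference in age, so their values are given side by side and are not independent. In RV, Mki67 ranged from 10.8 to 27.7 CPM in AAV_3E13 (median 19.9), was 5.19, 5.67, 6.29, 9.25 and 13.2 CPM in AAV_1E14, and ranged from 19.4 to 35.0 CPM in the late group (median 24.4). Every one of these libraries lay below the lowest cKO RV library. The log2 fold changes against cKO were -3.15 ± 0.32 in AAV_3E13 (adjusted p = 1.205e-05), -4.44 ± 0.44 in AAV_1E14 (3.062e-05) and -2.73 ± 0.36 in the late group (0.0001249).

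Mitotic genes were called lower than in cKO RV in 20 of 23 tested for AAV_3E13 (22.7% of all genes were lower and 19.4% higher), in 20 of 22 for AAV_1E14 (26.4% and 24.2%) and in 19 of 23 for the late group (25.2% and 22.6%). Cenpf was the 1 mitotic gene called higher in each, by 1.32, 2.27 and 1.61 on the log2 scale. In LV the counts were 19 of 23 lower for AAV_3E13 (9.45% lower, 8.58% higher), 18 of 21 for AAV_1E14 (18.1%, 17.3%) and 18 of 23 for the late group (15.9%, 17.4%). Cenpf was not called against cKO in LV, with log2 fold changes of 0.14, 1.30 and 0.63. Cenpa was called higher than in cKO LV in AAV_1E14 (0.69, adjusted p = 0.0345) and in the late group (0.83, 0.01298). All 23 were also tested without a filter on low counts, since a gene that is high in cKO alone can pass it. There 19, 21 and 19 were lower in RV (14%, 16.7% and 14.5% of all genes). In LV 18, 19 and 18 were lower (5.32%, 10.3% and 8.71%), and in AAV_1E14 LV 0 mitotic genes were then called higher. Without cKO_LV_2006 the LV counts of all members called fell from 30 to 14 for AAV_3E13 and from 27 to 13 for the late group. Under the unequal-variance test 0 members were called in LV in any of the 3, and 8, 18 and 5 in RV, with no share of all genes beside them. With each library's relative effective transcript length as a covariate, 0 of 31 calls of the late group RV were left and Mki67 was 0.16 higher, while the covariate did not overlap between the late group RV (-0.0325 to -0.0187 on the log2 scale) and cKO RV (0.0295 to 0.0428), so length and group cannot be told apart there. The same covariate left 18 members called for AAV_3E13 RV.

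Top2a differed from cKO RV by -2.79, -4.03 and -2.66 on the log2 scale in AAV_3E13, AAV_1E14 and the late group, all called. Its CPM ranged from 2.42 to 14.1, 1.86 to 5.75 and 6.09 to 14.8 in the 3 groups, all below the lowest cKO RV library. Cdk1 differed by -2.76, -4.05 and -2.42, with CPM of 0.269 to 2.09, 0 to 0.968 and 0.564 to 2.74. Ccnb1 differed by -3.0, -4.35 and -2.77, with CPM of 0 to 3.07, 0.133 to 0.968 and 0.736 to 2.97. Cdk1 had 0.689 to 2.06, 0.386 to 1.78 and 0.507 to 3.82 CPM in LV of the 3 groups and was called lower than in cKO in each. Ccnb1 had 0 to 1.97, 0 to 1.27 and 0.536 to 2.69 CPM in LV.

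S-phase genes were lower than in cKO RV in 11 of 14 tested for AAV_3E13 (22.7% of all genes), 9 of 14 for AAV_1E14 (26.4%) and 11 of 14 for the late group (25.2%), with medians of -1.24, -1.46 and -1.03. In LV 11 of 14, 9 of 13 and 8 of 14 were lower (9.45%, 18.1% and 15.9%). With no filter 9, 8 and 8 of 14 were lower in RV (14%, 16.7% and 14.5% of all genes). The LV counts were then 10, 10 and 8 of 14 (5.32%, 10.3% and 8.71%). No S-phase gene was called higher than in cKO in either ventricle. Rrm2 differed by -1.87, -2.80 and -1.60 in RV, and by -2.27, -3.02 and -1.43 in LV, the last not called (adjusted p = 0.102). Of the 6 comparisons with cKO, Ccnd1 was called in AAV_1E14 RV alone (-0.56, adjusted p = 0.03978), and Pcna in the late group RV (-0.56, 0.0412) and in AAV_3E13 LV (-1.03, 0.02216). Macrophage markers were lower than in cKO RV in 9 of 10 genes for AAV_3E13 and in 10 of 10 for AAV_1E14 and for the late group, with summed TPM of 259 to 494, 177 to 253 and 203 to 386.

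The levels of the other S-phase genes followed by name were as follows in the vector groups. Mcm5, a subunit of the MCM helicase, ranged from 0 to 1.55 CPM in AAV_3E13 RV, from 0.399 to 3.27 in AAV_1E14 RV and from 0 to 2.45 in the late group RV, and in LV from 0 to 5.16, 0 to 0.902 and 0 to 1.78. Ccne1 ranged from 0.157 to 1.55, 0.420 to 1.32 and 0.824 to 1.62 CPM in RV, and from 0.276 to 1.47, 0.985 to 1.29 and 0.989 to 1.62 in LV. In RV every Ccne1 value lay below the lowest cKO library, and in LV every group overlapped cKO. Rrm2 ranged from 1.40 to 3.02 CPM in AAV_1E14 RV, and from 1.39 to 3.76, 0.515 to 3.34 and 1.32 to 10.3 in LV of AAV_3E13, AAV_1E14 and the late group. Ccnd1, cyclin D1, ranged from 100.1 to 133 CPM in AAV_3E13 RV. In LV Ccnd1 ranged from 83.1 to 147 in WT, 97.6 to 157 in cKO, 85.6 to 179 in AAV_3E13, 101 to 142 in AAV_1E14 and 127 to 174 in the late group, and the 5 ranges overlapped. Of the mitotic genes, Top2a ranged from 2.13 to 9.94 CPM in AAV_1E14 LV and from 4.94 to 20.6 in the late group LV, the first below and the second overlapping cKO LV.

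Against WT few members were called in the vector groups. The shares of all genes called stand beside these counts, and few calls do not show that these genes in particular matched WT. Fewer mitotic genes passed the filter here, 11 to 14 of 23 in RV and 13 to 15 in LV, so medians are also given for all 23 without a filter. In AAV_3E13 RV 0 mitotic genes were called higher and 1 lower (11.8% and 10% of all genes), and 2 S-phase genes were higher and 1 lower. The lower mitotic gene was Cenpf, from 45.9 to 201 CPM against 157 to 255 in WT (-0.60 ± 0.20, adjusted p = 0.04007). Rrm2 was higher, at 0.673 to 7.24 CPM (1.23 ± 0.40, 0.03607), and so was Pcna, at 30.6 to 50.1 CPM (0.43 ± 0.12, 0.01898). Mcm7 was lower (-0.33, 0.04093). The median over all 23 mitotic genes was 0.21 without a filter, where Pcna was the 1 member called in place of 4. Without WT_RV_5819, 2 members were called, with effective length offsets 1 and with the length covariate 0. Fibroblast markers were higher than in WT RV in 8 of 10 genes and macrophage markers in 3 of 10, and endothelial markers were lower in 7 of 10.

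In AAV_3E13 LV 2 mitotic genes were higher and 1 lower (19.9% and 19.2% of all genes), and 2 S-phase genes were higher and 1 lower. Cenpf was 33.9 to 126 CPM against 119 to 289 in WT LV, so the ranges met only at their ends, and it fell by 1.54 ± 0.27 on the log2 scale (adjusted p = 0.000188). Top2a was 6.18 to 16.9 CPM against 4.14 to 10.7 (0.73 ± 0.23, 0.01526), and the kinesin Cenpe rose by 0.77. Mki67, at 18.4 to 39.8 CPM, was not called (0.46, 0.1245). Mcm3 and Mcm6 rose by 0.63 and 0.59, while Pcna, at 24.7 to 36.5 CPM, fell by 0.34 ± 0.11 (0.01654). Without a filter the median over all 23 mitotic genes was 0.48, with 1 higher and 1 lower, and with effective length offsets 3 members were called in place of 6. All 10 macrophage markers and 9 of 10 fibroblast markers were called higher than in WT LV, 8 of 10 endothelial markers were higher and all 10 cardiomyocyte markers lower; their part in these values was not tested.

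In AAV_1E14 RV Mki67 was below WT, at 5.19, 5.67, 6.29, 9.25 and 13.2 CPM against a WT range of 5.55 to 37.1 and a WT median of 15.2 (-1.15 ± 0.36, adjusted p = 0.02409). All 5 values were below the WT median, and the groups overlapped. It was the 1 mitotic gene called lower, and Cenpa the 1 called higher (0.41, 0.03768), against 14.1% and 15.4% of all genes. Over all 23 mitotic genes without a filter the median was -0.61. Among S-phase genes Mcm6 (-0.54) and Mcm7 (-0.44) were lower and Pcna (0.41) was higher. Without a filter 3 of these 5 genes were called, Mki67, Mcm6 and Pcna, and 3 members were called without AAV_1E14_RV_2034 or without AAV_1E14_RV_5726. Endothelial markers were lower than in WT RV in 9 of 10 genes and cardiomyocyte markers higher in 9 of 10, and 0 of 10 fibroblast and 0 of 10 macrophage markers were called; their part in the lower Mki67 was not tested. Cenpf, at 138 to 303 CPM, was not called (0.30, 0.1844). Under the unequal-variance test 0 members were called, with 3 higher and 5 lower at an unadjusted p under 0.05. In AAV_1E14 LV edgeR and DESeq2 called 0 members, where 0.0075% of genes were called higher and 0 lower by edgeR, and 6 members were lower at an unadjusted p under 0.05. The median of all 23 mitotic genes there was -0.39 without a filter.

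In the late group RV 2 mitotic genes were called higher than in WT and 0 lower (17.8% and 18.5% of all genes), and 1 S-phase gene was higher. Rrm2 was 2.37 to 6.41 CPM against 0.668 to 3.74 in WT (1.47 ± 0.35, adjusted p = 0.003934). Ccna2 rose by 0.82 (0.02298) and Cenpa by 0.62 (0.003653). Mki67, at 19.4 to 35.0 CPM, was not called (0.59, 0.1213). The median over all 23 mitotic genes without a filter was 0.71, and fibroblast markers were higher than in WT in 7 of 10 genes, macrophage markers in 4 of 10 and cardiomyocyte markers in 4 of 10, while endothelial markers were lower in 9 of 10. Without AAV_1E14_2.5wk_RV_5814, 2 members were called in place of 3, and with the length covariate 1. In late LV edgeR called 0 members, where 0.859% of genes were higher and 0.633% lower, and 7 members were higher and 2 lower at an unadjusted p under 0.05. DESeq2 called 1 member lower there, Cenpf (-1.09). The median of all 23 mitotic genes in late LV was 0.59 without a filter.

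**Figure D4:**
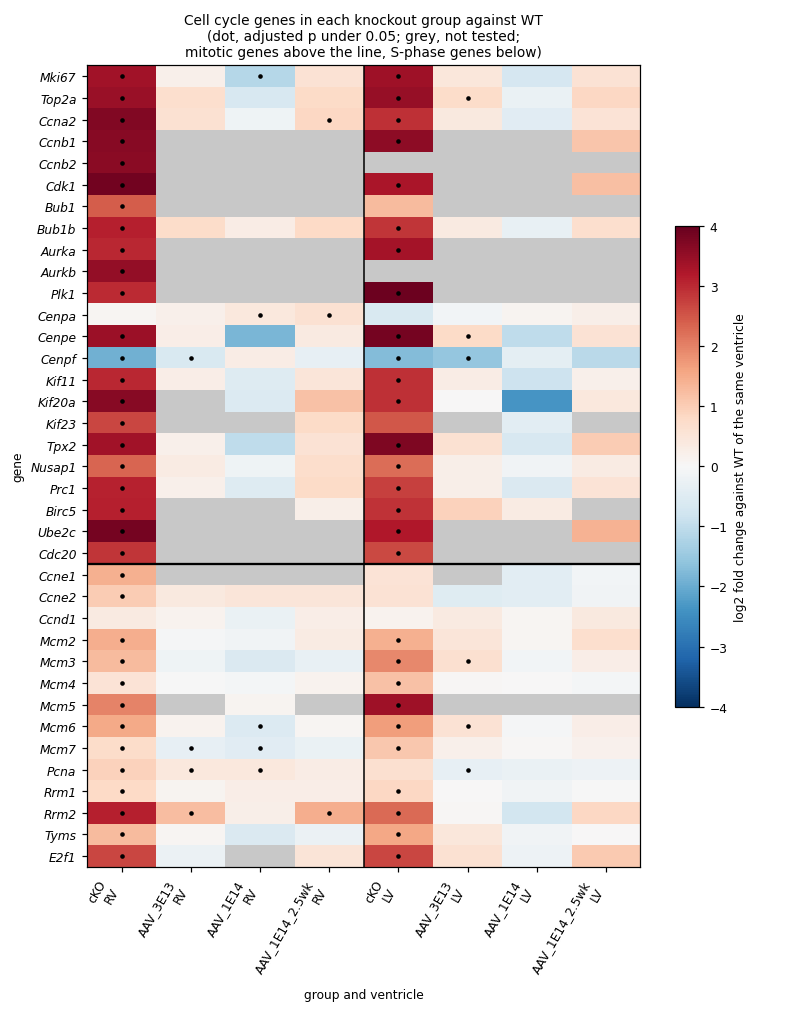
Log2 fold change against WT of the same ventricle for each of the 37 genes (rows, mitotic genes above the line and S-phase genes below) in the 4 knockout groups and 2 ventricles (columns). Red is higher than WT and blue lower, dots mark an adjusted p under 0.05 and grey marks genes that were not tested. The cKO columns are red for nearly all genes apart from Cenpf and Cenpa, and the vector columns are pale or grey with few dots.

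The 2 early doses were compared directly. Mki67 was lower at 1e+14 than at 3e+13 in both ventricles: in RV the 5 values of 5.19 to 13.2 CPM stood against 10.8 to 27.7, and in LV 6.40 to 22.4 against 18.4 to 39.8. Both pairs overlapped in part. The log2 fold changes were -1.34 ± 0.27 (adjusted p = 0.007198) and -1.14 ± 0.28 (0.0115). In RV 3 of 14 mitotic and 3 of 12 S-phase genes tested were lower and 0 higher (4.95% and 5.02% of all genes). They were Mki67, Top2a, Cenpe, Ccnd1, Mcm6 and Tyms. Without a filter 2 of these 6 were called, Mki67 and Ccnd1, with the length covariate 3 members and under the unequal-variance test 1. In LV 5 of 16 mitotic and 3 of 13 S-phase genes were lower (8.26%), among them Bub1 (-2.61), Cenpe (-1.78) and Mcm3 (-0.76). The 1 member called higher in LV (10.8% of all genes) was Cenpf (1.13 ± 0.30, adjusted p = 0.01728). Fibroblast markers were lower at the higher dose in 7 of 10 genes in RV and 8 of 10 in LV, and macrophage markers in 1 and 5, while cardiomyocyte markers were higher in 5 and 9. The number of members called fell to 2 in RV without AAV_1E14_RV_5822 and to 3 without AAV_1E14_RV_2034 or AAV_1E14_RV_5825, and in LV to 4 without AAV_1E14_LV_2034 and 5 without AAV_1E14_LV_5822.

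Timing was compared at 1e+14. In RV the late group had 19.4, 19.7, 20.2, 28.6, 33.8 and 35.0 CPM of Mki67, all above the 5 AAV_1E14 values, the highest of which was 13.2. The log2 fold change was 1.74 ± 0.27 (adjusted p = 0.005095). Top2a was also separate, at 6.09 to 14.8 CPM against 1.86 to 5.75 (1.40 ± 0.30, 0.01519). Of 14 mitotic genes tested 7 were higher with late dosing and 0 lower (4.97% and 3.95% of all genes), the others being Ccna2, Cenpe, Kif11, Tpx2 and Prc1, at log2 fold changes of 1.01 to 2.20. Without a filter 5 of all 23 were higher (2.54% of all genes), with a median of 1.40. Of 12 S-phase genes tested 2 were higher, Rrm2 (1.23 ± 0.30, 0.02553) and Ccnd1, at 103 to 143 CPM against 77.8 to 104 (0.54 ± 0.11, 0.01233). Of the other spindle genes 12 of 21 tested were higher, and of the other replication genes 0 of 33 by edgeR.

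Fibroblast markers were higher with late dosing in 4 of 10 genes in RV and macrophage markers in 1 of 10, and cardiomyocyte markers were lower in 4 of 10. Without AAV_1E14_2.5wk_RV_5814 or without AAV_1E14_RV_5822 the number of members called fell from 9 to 5, and the unequal-variance test called 0, with 16 higher at an unadjusted p under 0.05. The relative effective length covariate also left 0 members called. In LV edgeR called 0 members between late and early dosing, and 0 of all genes (0% higher and 0% lower), while DESeq2 called 1 and 16 members were higher at an unadjusted p under 0.05. Mki67 in late LV ranged from 10.8 to 39.9 CPM, with AAV_1E14_2.5wk_LV_5810 below the other 5, against 6.40 to 22.4 in AAV_1E14 LV.

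The ventricles differed in few members. In WT, Mcm3 was higher in RV by 0.56 ± 0.20 on the log2 scale (adjusted p = 0.04201) and Mcm7 by 0.35, and Pcna was lower by 0.34 ± 0.11 (0.02311), where 12.3% of all genes were higher and 15.4% lower in RV. Without WT_RV_5819 Mcm3 missed the threshold (0.55, adjusted p = 0.06365), and with effective length offsets 0 members were called in place of 3. In cKO edgeR called 0 members at an adjusted p under 0.05 and 0 at an unadjusted p under 0.05 (0.00726% of genes higher). In AAV_3E13, Cenpf was higher in RV by 1.10 ± 0.30 (0.01596) and Pcna by 0.43 ± 0.12 (0.02011), against 10.8% of all genes higher and 9.49% lower. With the animal as a replicate block Mki67 (-0.58, adjusted p = 0.02427) and Ccnd1 (-0.31, 0.0229) were also called lower in RV in AAV_3E13. In AAV_1E14, Ccnd1 was lower in RV by 0.48 ± 0.11 (0.04067), against 1.54% of all genes, and with the block Mki67 (-0.76, 0.03922) was lower and Cenpf (0.86, 0.02134) higher. In the late group edgeR called 0 members (0.0151% of genes higher), with 1 higher and 2 lower at an unadjusted p under 0.05.

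The difference from WT was called as unlike between ventricles for 6 of 32 members tested in AAV_3E13, 3 in each direction, a smaller share than the 18.8% of all genes that were higher and 18.1% that were lower. They were Pcna (0.78 more in RV on the log2 scale, adjusted p = 0.0003418), Mcm7 (-0.52, 0.008457), Mcm3 (-0.80, 0.01402), Cenpf (0.94, 0.03358), Rrm2 (1.19, 0.03853) and the sparse Mcm5 (-3.01, 0.04694). For AAV_1E14 they were Pcna (0.67, 0.005868) and Rrm1 (0.40, 0.04931), against 11.4% of all genes. For the late group it was Pcna (0.55, 0.01478), against 10.7%. With effective length offsets 1, 1 and 0 members were called in place of 6, 2 and 1. Without WT_RV_5819 Rrm2 in AAV_3E13 (1.14, adjusted p = 0.05531) and Rrm1 in AAV_1E14 (0.38, 0.06757) missed the threshold. With the animal as a replicate block Rrm2 in AAV_3E13 missed the threshold (adjusted p = 0.05897), and Plk1 in AAV_3E13, Cenpf in AAV_1E14 and Cenpf in the late group (0.87, 0.04928) were added. The mean of Pcna was above that of WT in RV and below it in LV in each vector group. These comparisons share the same 9 WT animals, in which Pcna was lower in RV by 0.34, so they are not independent. The means were 28.7 ± 4.97, 38.9 ± 7.31, 38.5 ± 5.79 and 36.0 ± 4.59 CPM in RV (WT, AAV_3E13, AAV_1E14, late) and 36.5 ± 4.56, 28.7 ± 4.85, 30.3 ± 2.84 and 31.2 ± 3.63 in LV (SD, n = 9, 8, 5 and 6).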

How the data were processed

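RV and LV RNA of 32 mice in 5 groups was sequenced (64 libraries), and groups were taken from the sample labels. The authors trimmed reads with fastp, used Salmon 1.8.0 with GENCODE transcripts (GRCm39), and gene values were then made with tximport. The deposited files held estimated counts, TPM and a length signal (the mean effective transcript length per gene and library). The labels name polyA RNA, while the study's methods name both a polyA protocol and a ribosomal depletion kit. No files of the authors' own comparisons were used.

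The estimated counts were rounded to whole numbers. The 37 mitochondrial genes (16.6% to 40.2% of counts) and the row without a name (at most 0.00136%) were left out, which changed totals of 7.96 M to 14.6 M into 5.34 M to 10.2 M. Each pair of groups was tested within a ventricle, using only the libraries of both groups, with edgeR 4.0.16 (R 4.3.3, limma 3.58.1): TMM, filterByExpr, the quasi-likelihood F test, and Benjamini-Hochberg adjustment over all genes tested at 0.05. A call is a gene past that threshold. SE is the log2 fold change divided by the square root of F. A difference between ventricles, or between ventricles in the difference from WT, was tested in the same way. These tests had no block, so RV and LV of an animal were treated as independent. Each library is a separate animal within a ventricle, and intervals cover only the spread between these animals.

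RV and LV libraries with a shared number come from the same animal by their labels. Over 13477 genes the deviations of the paired libraries from their group means correlated with a median r of 0.169 (32 animals, -0.0555 to 0.647, 23 above 0.1), against -0.0292 between other animals, and animal 5814 had the lowest value. The animal as a replicate block was therefore an alternative for ventricle comparisons.

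The other alternatives were DESeq2 1.42.0, its size factors within edgeR, no filter, offsets from the effective lengths, each library's relative effective length as a covariate (its mean log2 length over genes, relative to the mean of all libraries), the study's unequal-variance test on log2(TPM + 1) of TPM rescaled without mitochondrial genes, with genes above 0 in at least 10% of libraries, and leaving out single libraries (102 fits). Of these, the 6 that leave WT_RV_5819 or AAV_1E14_2.5wk_RV_5814 out of ventricle comparisons were chosen after seeing the data. For its unequal-variance test the study kept only protein-coding genes, which was not done here. The share of all genes called by that test is not given, so its counts of members stand without one. The fits were tested on simulated counts.

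The members and all gene lists were chosen with earlier results of these data known. By the naming rule all 37 members may be named. Full values are given for Mki67, Top2a, Cdk1, Ccnb1, Cenpf, Mcm5, Rrm2, Pcna, Ccnd1 and Ccne1. From each other cell cycle list the 3 called genes with the smallest p in cKO RV and those called in the opposite direction in either ventricle are named, and the brakes were named after their values were seen. Gene coordinates are from GENCODE on GRCm39 and promoter windows from RefSeq on GRCm38.p6. One gene of the lists, Lin54, was not matched.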

Additional observations from a re-analysis of the deposited data

Results flagged for a closer look

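Among 120 sets of values, each from 4 to 9 libraries, tested for a library far from the others, 10 held one. The threshold gives about 1 in 20 for normally distributed values. Levels were not log-transformed here and the sets share libraries, so that rate may not hold. Mki67 was 37.15 CPM in WT_RV_5803 (5.55 to 20.66 in the other WT RV libraries), 47.22 in WT_LV_2027 (14.46 to 25.12), 643.9 in cKO_LV_2006 (47.5 to 145.3) and 10.76 in AAV_1E14_2.5wk_LV_5810 (30.83 to 39.93). Top2a was 15.98 CPM in WT_RV_5803 (2.428 to 8.559), so that this WT library was high for both proliferation genes. Cenpf was 263.7 CPM in AAV_1E14_2.5wk_RV_5801 (108.1 to 162.6). Mcm5 was 3.981 CPM in WT_LV_2027 (0 to 0.8414), and the summed TPM of the 14 S-phase genes there was 218.4 (139.8 to 179.3). Rrm2 was 3.024 CPM in AAV_1E14_RV_5726 (1.401 to 1.862), and Pcna was 86.27 CPM in cKO_RV_2006 (39.85 to 46.99).

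The difference from WT was called as unlike between RV and LV in 9 cases by the interaction test in edgeR, each given as RV minus LV on the log2 scale. For AAV_3E13 these were Cenpf (0.9373), Mcm3 (-0.7995), Mcm5 (-3.012), Mcm7 (-0.5185), Pcna (0.7776) and Rrm2 (1.192). For AAV_1E14 they were Pcna (0.6693) and Rrm1 (0.3976), and for the late group Pcna (0.5537).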

How the results depend on the processing

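Among alternative counts of members called that did not leave out a library, 96 stayed within 1.5 times the reported count and 39 did not. Values below are members called, with the reported count in parentheses, and the causes were not tested. DESeq2 gave 1 (0) for late against AAV_1E14 LV and 1 (0) for late against WT LV. Without a filter there were 2 (6) for AAV_1E14 against AAV_3E13 RV, 3 (5) for AAV_1E14 against WT RV and 1 (4) for AAV_3E13 against WT RV. Effective length offsets gave 3 (5) for AAV_1E14 against WT RV, 3 (6) for AAV_3E13 against WT LV and 1 (4) in RV, 4 (2) and 0 (3) for RV against LV in AAV_3E13 and WT, and 1 (2), 0 (1) and 1 (6) for the ventricle difference in AAV_1E14, late and AAV_3E13.

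The relative effective length covariate gave 3 (6) for AAV_1E14 against AAV_3E13 RV, 0 (9) for late against AAV_1E14 RV, 1 (3) for late against WT RV, 0 (31) for late against cKO RV, 0 (4) and 18 (32) for AAV_3E13 against WT and cKO RV, 1 (3) for RV against LV in WT, and 1 (2), 0 (1) and 3 (6) for the ventricle difference in AAV_1E14, late and AAV_3E13. In late RV the covariate (-0.0325 to -0.0187) overlapped neither WT RV (0.0064 to 0.0752) nor cKO RV.

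The unequal-variance test gave 13 (35) for cKO against WT RV and 0 (28) in LV, 18 (30) and 0 (28) for AAV_1E14 against cKO RV and LV, 5 (31) and 0 (27) for late, 8 (32) and 0 (30) for AAV_3E13, 1 (6) and 3 (9) for AAV_1E14 against AAV_3E13 RV and LV, 0 (5) for AAV_1E14 and 2 (4) for AAV_3E13 against WT RV, and 0 (9) for late against AAV_1E14 RV.

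With the animal as a replicate block there were 4 (2) for RV against LV in AAV_3E13, 3 (1) in AAV_1E14 and 2 (1) for the ventricle difference of the late group, and the block moved no other count by over 1.5 times.

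Leaving out single libraries gave 29 to 35 for cKO against WT RV and 27 to 31 in LV, 3 to 6 for AAV_1E14 and 2 to 3 for late against WT RV, 2 for AAV_3E13 against WT RV, 29 to 31 and 14 to 31 for AAV_3E13 against cKO RV and LV, 28 to 33 and 25 to 31 for AAV_1E14, 27 to 32 and 13 to 32 for late, 2 to 4 and 4 to 9 for AAV_1E14 against AAV_3E13 RV and LV, 5 to 8 for late against AAV_1E14 RV and 0 in LV, and 0 for AAV_1E14 against WT LV. Without WT_RV_5819 there were 2 (3) for RV against LV in WT and 5 (6), 1 (2) and 1 (1) for the ventricle difference of AAV_3E13, AAV_1E14 and late, and without AAV_1E14_2.5wk_RV_5814 the late group had 0 (0) for RV against LV and 1 (1) for the ventricle difference.

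For 169 differences of single genes followed, 238 alternative values kept the sign and lost the call, and 14 gained it. In 2024 both sign and call status stayed the same. Another 21 alternative values changed sign, 17 of them under the covariate or the offsets. Under the covariate these were, for late against cKO RV, Ccnb1 (3.449), Cdk1 (2.383), Mcm5 (3.586), Mki67 (0.1607), Pcna (1.249) and Top2a (1.1). For late against WT they were Ccna2 (-0.1741), Ccnd1 (-0.01627), Mki67 (-1.283) and Top2a (-1.172) in RV and Ccne1 (0.2515) in LV. For AAV_3E13 against WT they were Mki67 (-0.6634) and Top2a (-0.09567) in RV and Rrm2 (-0.003946) in LV, and for AAV_1E14 Cenpf (-0.0176) in RV and Ccnd1 (-0.02084) in LV. Offsets turned Rrm2 in AAV_3E13 LV (-0.04989) and the unequal-variance test Ccne1 in late LV (0.007034). Mcm5 in AAV_1E14 against WT RV (0.1107) was -0.4607 to 0.345 without single libraries, below 0 without AAV_1E14_RV_2034 (-0.07749), AAV_1E14_RV_5726 and WT_RV_5819 (-0.06148). Size factors moved the median of all genes by at most 0.031. Depth also limited the mitotic genes, of which 12 of 23 had a mean under 10 counts in WT RV and 14 of 23 in AAV_1E14 RV.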
